A study of Mus musculus with 2 samples.

Results

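The genes described here are 10 mouse genes of autophagosome formation and mitophagy: Gabarap, Gabarapl1, Gabarapl2, Map1lc3a, Map1lc3b, Atg5, Wipi1, Sqstm1, Bnip3 and Bnip3l. They were taken by name, as every probe whose platform gene symbol equals one of these symbols, which gave 16 probes for 10 of the 19057 named genes. The samples were lens epithelium and lens fibers of wild-type mouse embryos at stage E12.5, with 1 array each. Biotin-labelled total RNA was read on Illumina expression arrays of the whole mouse genome. The sources used here give neither the strain nor the number of embryos behind each sample, nor how the tissues were parted.

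Autophagy encloses cytoplasm in a double membrane, the autophagosome, which then fuses with the lysosome. Proteins of the ATG8 family, namely the LC3 and GABARAP proteins, are attached to the growing membrane lipid by a conjugation machinery that includes ATG5, and receptor proteins tie the cargo to them. Mitophagy is the removal of mitochondria by this route. Lens fibers lose their nuclei, mitochondria and endoplasmic reticulum as they mature. In the mouse lens, fibers that lack Bnip3l retain organelles, whereas loss of Atg5 does not stop organelle loss. The arrays do not show whether organelle loss had begun in the E12.5 fibers.

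The deposited intensities were normalized so that both arrays had the same distribution, and each gene takes the values of its brightest probe. The floor of an array is the level under which 95% of 1580 probes lie whose genes have no known role in lens, called silent here (receptors for odours, pheromones and trace amines, and hair keratin-associated proteins). It was 44.6 in epithelium and 32.1 in fibers. Genes that pass the floor of each array have a ratio. Genes that pass it on 1 array have a bound, computed against the floor on the dim array, which can only point to the bright one. All ratios are fibers over epithelium. With 1 array per tissue there was no test and no replicate error. The number of arrays limits the precision, and in tissue samples fewer expressing cells and less RNA per cell cannot be told apart. As a measure of noise, 32 silent probes that passed both floors had log2 ratios with an SD of 0.84 around a median of -0.49.

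The tissue labels were checked against markers. All 6 fiber markers were higher in fibers, from 6.20-fold for Mip, an aquaporin, to 18.5-fold for the crystallin Crybb1. However, 5 of the 6 also passed the floor in epithelium, where Mip read 3206.5, Cryaa 276, Crygc 207 and Crybb1 183. Whether the epithelium sample held fiber material was not tested. The 4 measured epithelium markers were at least 2-fold higher in epithelium, among them Cdh1 (E-cadherin, 5.22-fold) and Gja1 (connexin 43, at least 12.4-fold). Foxe3, a transcription factor of the lens epithelium, was below the floor on both arrays (-2.14 and 0.0969).

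Of the 10 genes, 7 were at least 2-fold higher in fibers, 3 of them as ratios and 4 as bounds. Not 1 of the 10 reached 2-fold in epithelium, 1 had no direction and 2 were below the floor on both arrays. Among all 6451 genes measured on at least 1 array, 15.5% were as much higher in fibers and 18.5% as much higher in epithelium. Of 1308 genes taken to be silent, 121 were measured, with 6 at 2-fold or more in fibers by the same rule and 31 in epithelium. These are 0.459% and 2.37% of all 1308, not of the measured ones. The floors were set on probes of these same genes, so such low shares were largely fixed in advance. The ratios were 3.59-fold for Bnip3l, 2.20-fold for Gabarapl2 and 2.19-fold for Gabarap. The lower bounds were 6.33-fold for Gabarapl1, 2.75-fold for Atg5, 2.34-fold for Wipi1 and 2.15-fold for Map1lc3b, and the order of bounds and ratios was not settled. The genes were named with earlier results of these data known, so their shared direction is a description.

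**Figure D1:**
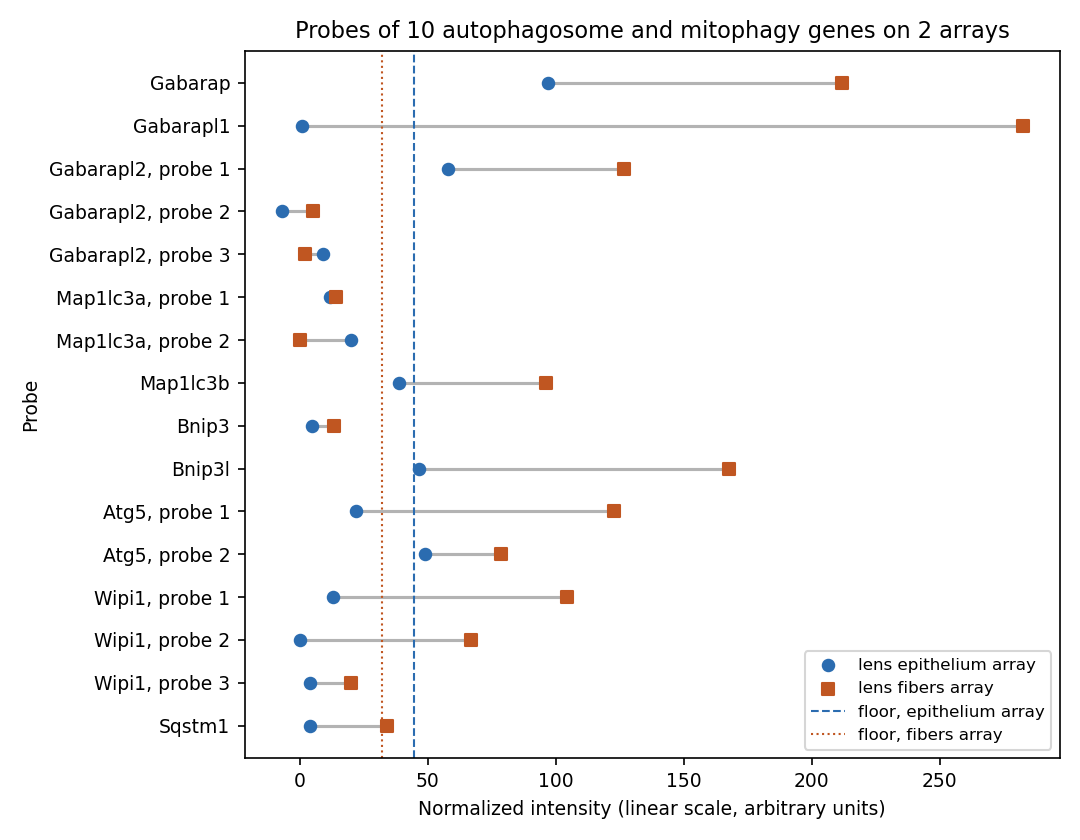
Normalized intensity (horizontal axis, linear scale, arbitrary units) of the 16 probes of the 10 genes. Circles are the lens epithelium array, squares the lens fibers array, and vertical lines the floors of 44.6 (epithelium, dashed) and 32.1 (fibers, dotted). Gabarapl1 spans from 0.897 in epithelium to 282 in fibers, while both Map1lc3a probes and the single Bnip3 probe lie under both floors.

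Of the ATG8 genes, 3 belong to the GABARAP subfamily and Map1lc3a and Map1lc3b to the LC3 subfamily; whether the subfamilies differ was not tested. The GABARAP proteins act mainly in late steps of autophagosome formation, and all 3 genes were higher in fibers. Gabarapl1 read 0.897 in epithelium and 282 in fibers. In fibers, 1 of the 1580 silent probes was as bright. In epithelium it lay among the silent probes, 831 of which were as bright or brighter. The bound of at least 6.33-fold was reached or passed by 87 of the 6451 measured genes (1.35%).

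Gabarap, the founding member of the subfamily, read 96.9 in epithelium and 212 in fibers (2.19-fold, log2 ratio 1.13). Gabarapl2, also called GATE-16, read 57.7 and 127 at its brightest probe (2.20-fold, log2 ratio 1.14). A ratio or bound of this size or larger was held by 13.3% of measured genes for Gabarap and 13.2% for Gabarapl2. The other Gabarapl2 probes were under the floor on both arrays, at 8.94 and 2.11 for one and at -7.06 and 5.08 for the other, so the Gabarapl2 ratio rests on 1 of its 3 probes.

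The LC3 proteins mark the elongating membrane. Map1lc3b, the form most used as an autophagosome marker, read 38.8 in epithelium, under the floor, and 96.0 in fibers, at least 2.15-fold higher. In epithelium 94 silent probes were as bright, and in fibers 12. Map1lc3a was not above the floor on either array: one probe read 11.9 in epithelium and 14.2 in fibers, and the other 20.0 and 0.0969. It therefore has no ratio, and the array does not show whether it differs. Level differences between genes were not read from these values, since probes bind with different strength.

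Atg5 and Wipi1 act while the membrane forms. ATG5 is joined to ATG12 in the complex that places ATG8 proteins on the membrane. The brightest Atg5 probe read 22.0 in epithelium and 123 in fibers, at least 2.75-fold higher. The second probe was above the floor on both arrays, 48.8 and 78.7, with a ratio of 1.61. The probes shared the direction, and the second did not reach 2-fold.

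WIPI1 binds phosphatidylinositol 3-phosphate on the forming membrane. Its brightest probe read 12.9 in epithelium and 104 in fibers, at least 2.34-fold higher. Another probe read -0.118 and 67.0, a log2 bound of 0.59, and the last read 3.90 and 20.0, under both floors. Each of the 3 probes was brighter in fibers, but the last stayed in the range of the silent probes.

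Bnip3l and Bnip3 encode related receptors of the outer mitochondrial membrane that bind ATG8 proteins directly. Bnip3l, also called NIX, read 46.6 in epithelium, just above the floor, and 168 in fibers, a ratio of 3.59 (log2 1.84) that 4.57% of measured genes reached or passed. In epithelium 73 silent probes were as bright, and in fibers 5. Bnip3 read 4.93 and 13.2, under both floors, and has no ratio. Sqstm1, the receptor p62 for ubiquitin-tagged cargo, read 3.90 in epithelium and 34.2 in fibers. Its fibers value passed the floor of that array by little, 77 silent probes were as bright, and its bound lay under 1, so no direction is given.

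Bnip3l also serves the removal of mitochondria from maturing red blood cells, so erythroid markers are given beside it. Of 8 on the array, 2 were measured. The globin Hbb-y read 121 and 124 (log2 ratio 0.03), and Hba-a1 14.8 and 76.7, a log2 bound of 0.78. Alas2, the erythroid enzyme of haem synthesis, and the embryonic globin Hba-x read below 0 on both arrays. The summed level of the 8 was 159 in epithelium and 224 in fibers. The part of the globins in the Bnip3l ratio was not tested.

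Markers of neurons and retina, mesenchyme, endothelium, macrophages and pigment cells were mostly under the floor, with 1 of 6, 1 of 6, 1 of 5, 2 of 4 and 1 of 5 measured. The summed levels in epithelium and fibers, which include probes under the floor, were 244 and 77.3 for neurons and retina, 233 and 52.8 for mesenchyme, 97.5 and 80.6 for macrophages, 140 and 37.5 for pigment cells and 34.5 and 110 for endothelium. The endothelial sum in fibers came mainly from the receptor Tek, at 6.92 and 83.4. In epithelium the neuron and mesenchyme sums came mainly from Elavl3 and Tfap2b, whose values follow. The other neuron and mesenchyme markers were under the floor on both arrays. The part of these cell types in the ratios of the 10 genes was not tested. Elavl3, a neuronal RNA-binding protein, read 213 and 77.8 (2.74-fold higher in epithelium), with its 2 other probes under the floor on both arrays. Tfap2b, a mesenchyme marker, read 209 and 36.2 (5.76-fold), and 2 of its 5 other probes had bounds in favour of epithelium, of 3.14-fold and 3.17-fold.

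Housekeeping genes were set beside the 10 genes as the reference. Of 15 measured, 13 lay toward fibers, and 8 of those reached 2-fold, as none did in epithelium. Over all measured genes, the shares at 2-fold were 15.5% in fibers and 18.5% in epithelium. The housekeeping median log2 ratio was 1.03, and that of the 8 measured autophagosome and mitophagy genes was 1.18, so the medians differed by 0.15. The median over all measured genes was 0. Members of the housekeeping list ranged widely. The beta-actin gene Actb read 4162 and 7462 (1.79-fold), Gapdh 268 and 546 (2.04-fold), Ppia (cyclophilin A) 434 and 769 (1.77-fold) and Ywhaz (a 14-3-3 protein) 1246 and 1729 (1.39-fold). The general transcription factor gene Tbp (63.8 and 42.4, a log2 ratio of -0.59) and the ATPase gene Vcp (152 and 93.0, -0.71) were lower in fibers. The membrane protein genes Emc7 and Reep5 had log2 bounds of 0.56 and 0.11.

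The other 7 housekeeping genes at 2-fold or more had ratios or bounds. Rab7, the GTPase that directs late endosomes and autophagosomes to the lysosome, read 46.6 and 421 (9.03-fold), and its 3 other probes were under the floor on both arrays. The bound for the proteasome subunit Psmb2 was 8.51-fold, with other probes at log2 ratios of 1.60 and 0.0049, and the subunit Psmb4 was 4.84-fold higher. Chmp2a, a subunit of the ESCRT membrane-scission machinery, was at least 3.99-fold higher, but another of its probes was at least 2.47-fold higher in epithelium. Hprt (purine salvage) was at least 3.94-fold higher, with a second probe at at least 1.46-fold and the last under the floor. The splicing protein gene Snrpd3 was 2.76-fold higher and the retromer subunit Vps29 at least 2.60-fold, but neither of the other Vps29 probes had a direction.

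The arrays were also scaled to the 9 housekeeping genes above the floor on both. Their log2 ratios ran from -0.71 for Vcp to 3.17 for Rab7, and the scale was set by their median, which is the Actb ratio. It divides every fibers value by 1.79 (0.84 on the log2 scale) and moves the median of all measured genes to -0.52. On that scale 2 of the 10 genes were 2-fold or more higher in fibers and 0 in epithelium, where 4.57% of all measured genes were as much higher in fibers and 41.7% in epithelium. Gabarapl1 was then at least 3.53-fold higher and Bnip3l 2.003-fold. Atg5 was at least 1.53-fold, Wipi1 at least 1.30-fold, Gabarapl2 1.22-fold, Gabarap 1.22-fold and Map1lc3b at least 1.20-fold higher. Of these 7, the 3 ratios stayed toward fibers, whereas the 4 bounds could not turn direction by their rule. Which scale reflects RNA per cell was not tested.

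**Figure D2:**
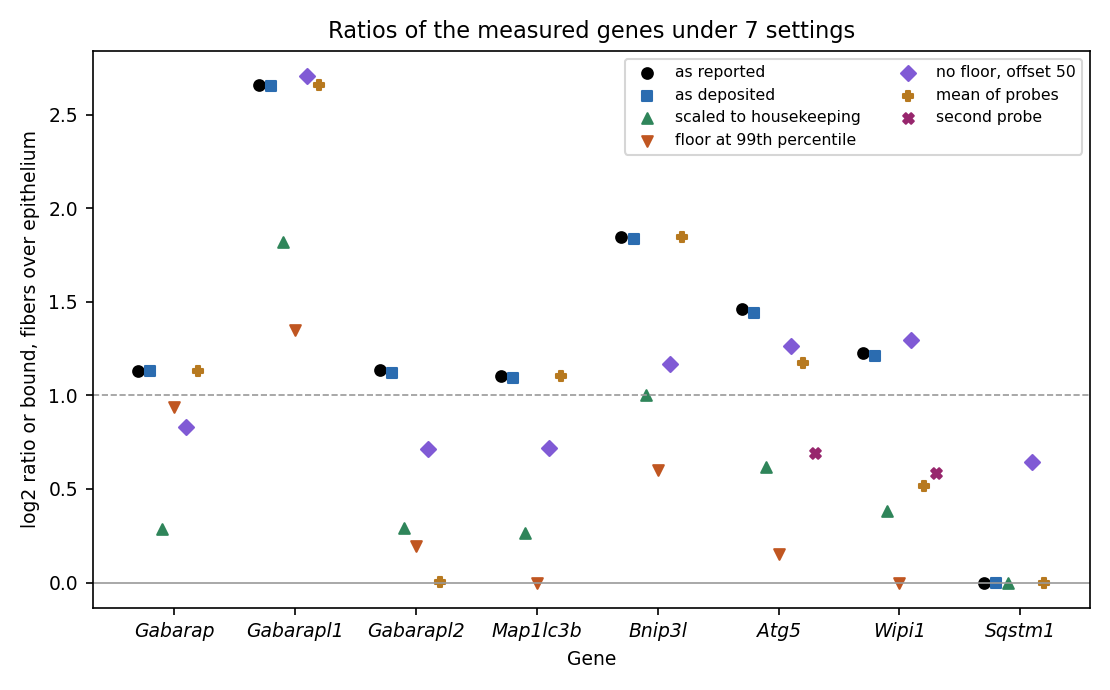
Log2 ratio or bound, fibers over epithelium (vertical axis), for the 8 measured genes under 7 settings. The dashed line marks 2-fold. Gabarapl1 stays above it wherever it has a value, from 1.35 to 2.71. With the floor at the 99th percentile of silent probes, the other genes that have a value lie under it. Scaled to housekeeping genes, only Gabarapl1 and Bnip3l reach it. Sqstm1 lies under it wherever drawn and has no value at the 99th percentile floor.

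A stricter floor at the 99th percentile of the silent probes, 111 in epithelium and 80.7 in fibers, left 1 of the 10 genes at 2-fold or more, Gabarapl1 with a log2 bound of 1.35. Gabarap then had a log2 bound of 0.94, and Bnip3l one of 0.60. The fibers values of the 7 genes passed that floor, whereas no epithelium value of the 10 did, so none of the 7 kept a ratio, and Map1lc3b and Wipi1 had no direction.

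The wider autophagy machinery, 53 further genes on the array in 5 lists, did not share one direction. Of 27 measured, 6 were 2-fold or more higher in fibers and 5 in epithelium, beside 15.5% and 18.5% of all measured genes. The median log2 ratio of the 27 was 0.27. Scaled to housekeeping genes, 1 of the 27 was as much higher in fibers and 9 in epithelium, beside 4.57% and 41.7% of all measured genes on that scale. The other 26 were under the floor on both arrays.

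Among genes that start autophagy, 5 of 11 were measured. Rb1cc1, the FIP200 scaffold of the ULK kinase complex, read 187 in epithelium and 54.4 in fibers (3.44-fold higher in epithelium), with its 2 other probes under the floor. Ambra1, a regulator of the Beclin complex, was at least 2.29-fold higher in fibers, with another probe at at least 1.08-fold and the rest under the floor. The kinase Ulk1 read 115 and 139 (log2 ratio 0.27) and Becn1 37.9 and 55.3 (a log2 bound of 0.31).

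Of 5 measured genes for growth of the membrane, 3 were 2-fold or more higher in fibers and none in epithelium. The shares over all measured genes were 15.5% and 18.5%, and the median log2 ratio of the 5 was 1.41. Vmp1, a lipid scramblase of the endoplasmic reticulum, read 37.9 and 344 (at least 7.71-fold), though its 4 other probes were under the floor. Atg2b, a lipid transfer protein, read 149 and 481 (3.22-fold), but a second probe was at least 3.17-fold higher in epithelium. Wdr45b, a relative of Wipi1, had a bound of 2.65-fold in favour of fibers, with its 4 other probes under the floor, and Wipi2 read 89.2 and 69.1 (log2 ratio -0.37).

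Of the 10 further genes that attach ATG8 proteins to lipid, 9 were under the floor on both arrays, among them Atg7 (16.9 and 3.10) and Atg3 (4.93 and 26.1), the activating and conjugating enzymes. Atg12, the partner of Atg5, read 2.88 and 41.3 and had no direction. Atg5 was thus the conjugation gene with a bound.

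Other cargo receptors lay on both sides. Of 10 measured, none reached 2-fold in fibers and 3 did in epithelium, beside 15.5% and 18.5% of all measured genes. The median log2 ratio of the 10 was -0.05. Nbr1, a relative of Sqstm1, read 123 in epithelium and 12.1 in fibers, at least 3.83-fold higher in epithelium, and its second probe was at least 3.70-fold higher there. The bounds in favour of epithelium were 2.54-fold for Tollip, with its 2 other probes under the floor, and 2.47-fold for Retreg1, a receptor for the endoplasmic reticulum. Fundc1, a mitophagy receptor of the outer membrane like Bnip3l, read 16.9 and 55.3, a log2 bound of 0.31. The mitophagy receptors Fkbp8 (133 and 111) and Phb2 (80.4 and 69.1) had log2 ratios of -0.26 and -0.22.

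Among 12 genes for fusion with the lysosome, 6 were measured. Fyco1, a kinesin adaptor for autophagosomes whose human gene is mutated in inherited cataract, read 1.90 and 92.0, at least 2.06-fold higher in fibers, with its second probe under the floor. Vps16, a subunit of the tethering complexes, was at least 2.70-fold higher in fibers, with a second probe at at least 2.54-fold. Of its remaining probes, one had no direction and the other was under the floor. Plekhm1, an adaptor that joins RAB7 to ATG8 proteins, read 119 and 8.06, at least 3.70-fold higher in epithelium. Its other probe had a bound of 1.98-fold the same way.

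**Figure D3:**
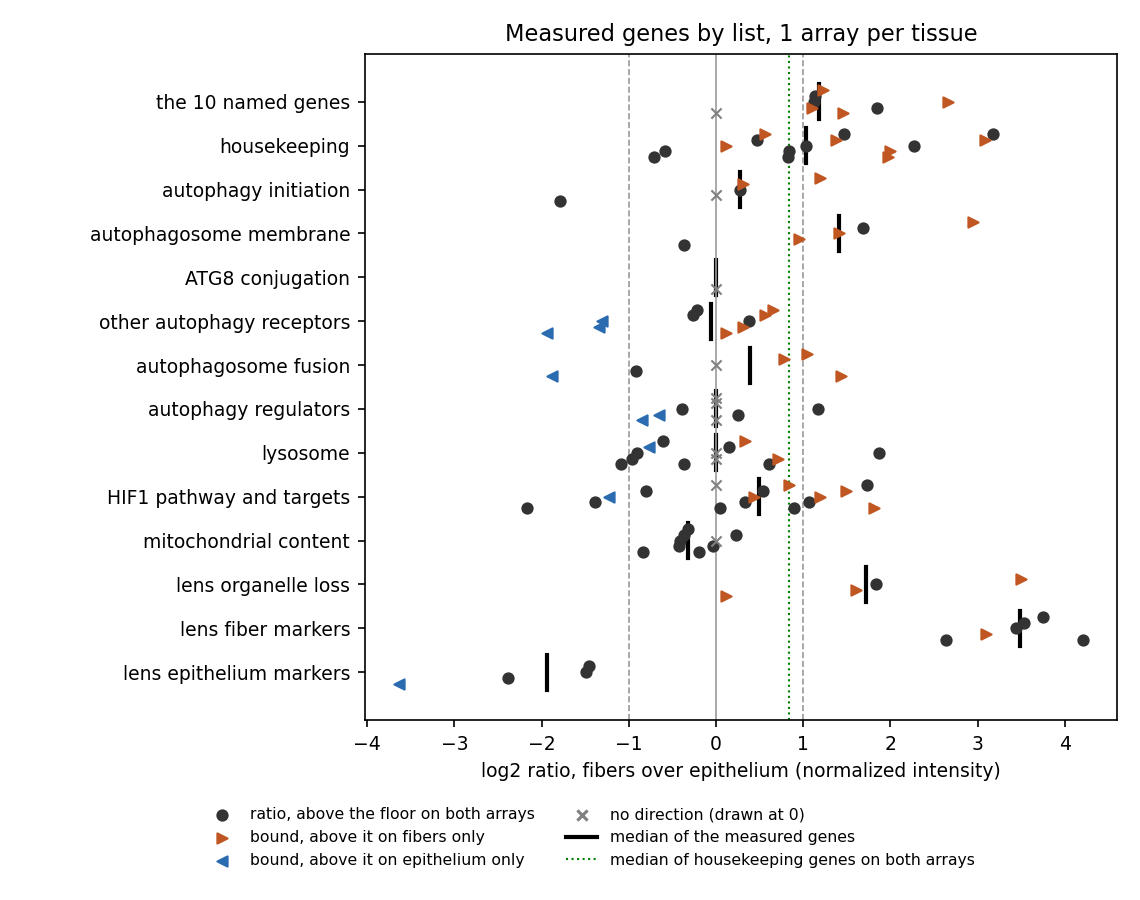
Log2 ratio, fibers over epithelium (horizontal axis), of every measured gene of 14 lists. Circles are ratios, triangles bounds, crosses genes without direction, black bars list medians, dashed lines 2-fold and the dotted line the housekeeping median of 0.84 over genes on both arrays. The 10 named genes and the housekeeping genes overlap, with medians of 1.18 and 1.03, while the lysosome and mitochondrial lists lie around or under 0.

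Regulators and lysosomal genes did not follow the 10 genes. Of 8 measured regulators, Tsc2, an inhibitor of mTORC1, was 2-fold or more higher in fibers, and epithelium had 0 at that distance. Tsc2 read 123 and 277 (2.25-fold), with a second probe at 2.02-fold and the last under the floor. Tfeb, the factor that controls lysosome genes, was under the floor (0.897 and 9.08). Of 13 measured lysosome genes, 1 was 2-fold higher in each tissue, beside 15.5% (fibers) and 18.5% (epithelium) of all measured genes. The median log2 ratio of the 13 was 0. The membrane proteins went opposite ways: Lamp1 read 87.3 and 319 (3.66-fold higher in fibers) and Lamp2 383 and 180 (2.12-fold higher in epithelium). Other Lamp2 probes were 2.27-fold and 1.30-fold higher in epithelium, and the rest were under the floor on both arrays. Scaled to housekeeping genes, 6 of the 13 were 2-fold or more higher in epithelium and 1 in fibers, beside 41.7% and 4.57% of all measured genes on that scale.

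Of 9 measured genes of mitochondria, the cargo of Bnip3l, none reached 2-fold in either direction. Over all measured genes, 15.5% did so in fibers and 18.5% in epithelium. Among the 9, log2 ratios were below 0 for 7, above 0 for Cox4i1 alone, and the median was -0.33. The outer membrane channels Vdac2 and Vdac1 read 115 and 64.1 (1.79-fold higher in epithelium) and 2078 and 1612, the chaperone Hspd1 242 and 180, and the respiratory subunit Cox4i1 140 and 165. Scaled to housekeeping genes, 6 of the 9 were 2-fold or more higher in epithelium, beside 41.7% of all measured genes.

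Bnip3l and Bnip3 are known targets of the hypoxia factor HIF1, and other genes of that pathway were split. Of 16 measured, 5 were 2-fold or more higher in fibers and 3 in epithelium, beside 15.5% and 18.5% of all measured genes. The median log2 ratio of the 16 was 0.49. Those higher in fibers included Vegfa, an angiogenic factor (at least 3.50-fold, with a second probe at at least 1.89-fold and the last under the floor), the glycolytic enzyme Pgk1 (3.32-fold, with no direction in its 2 other probes) and the mitochondrial protein gene Higd1a (at least 2.80-fold). The glucose transporter Slc2a1 (4.51-fold), Ldha (2.63-fold) and Hif1a itself (75.0 and 23.0, at least 2.33-fold) were higher in epithelium, and the 2 other Hif1a probes were under the floor on both arrays. Scaled to housekeeping genes, none of the 16 was 2-fold higher in fibers and 4 were in epithelium, beside the same 4.57% and 41.7%.

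Of 4 measured genes known for loss of organelles in lens, 3 were 2-fold or more higher in fibers. The share over all measured genes was 15.5%. Tdrd7, an RNA granule protein, was at least 11.3-fold higher. Plaat3, a phospholipase that breaks down organelle membranes in lens, read 68.9 and 245 (3.56-fold, with its second probe under the floor), and Hsf4, a transcription factor for crystallin genes, 15.8 and 136 (at least 3.05-fold). Dnase2b, the nuclease that degrades fiber DNA, read 42.7 and 48.3, a log2 bound of 0.11.

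Promoter sequences, from 250 bases before the start of transcription to 50 after it, were found in RefSeq (GRCm38.p6) for 8 of the 10 genes, all but Bnip3l and Map1lc3a. They are shown for the GABARAP genes, which were all higher in fibers, and for Atg5, the conjugation gene with a bound. Capitals mark ACGTG, the core letters of the HIF site, on either strand. The letters CACGTG, the core of the TFEB site, contain ACGTG on both strands.
Gabarapl1, chr6:129532942-129533241, plus strand: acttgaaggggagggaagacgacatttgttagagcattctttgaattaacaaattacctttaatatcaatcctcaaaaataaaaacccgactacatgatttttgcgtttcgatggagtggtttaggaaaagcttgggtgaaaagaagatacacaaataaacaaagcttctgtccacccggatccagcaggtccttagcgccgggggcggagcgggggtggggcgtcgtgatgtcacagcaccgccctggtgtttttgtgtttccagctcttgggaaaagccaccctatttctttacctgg
Gabarap, chr11:69991120-69991419, plus strand: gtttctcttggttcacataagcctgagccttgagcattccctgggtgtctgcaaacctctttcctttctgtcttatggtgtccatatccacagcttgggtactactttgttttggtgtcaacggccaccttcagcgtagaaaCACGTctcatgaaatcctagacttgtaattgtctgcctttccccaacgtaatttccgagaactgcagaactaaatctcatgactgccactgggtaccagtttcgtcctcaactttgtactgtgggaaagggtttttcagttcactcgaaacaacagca
Gabarapl2, chr8:111940453-111940752, plus strand: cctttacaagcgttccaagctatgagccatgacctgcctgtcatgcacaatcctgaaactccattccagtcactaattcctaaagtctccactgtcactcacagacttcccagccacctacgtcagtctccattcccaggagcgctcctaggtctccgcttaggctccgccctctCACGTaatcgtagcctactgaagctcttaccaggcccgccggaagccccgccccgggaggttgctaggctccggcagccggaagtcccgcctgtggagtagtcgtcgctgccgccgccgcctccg
Atg5, chr10:44268089-44268388, plus strand: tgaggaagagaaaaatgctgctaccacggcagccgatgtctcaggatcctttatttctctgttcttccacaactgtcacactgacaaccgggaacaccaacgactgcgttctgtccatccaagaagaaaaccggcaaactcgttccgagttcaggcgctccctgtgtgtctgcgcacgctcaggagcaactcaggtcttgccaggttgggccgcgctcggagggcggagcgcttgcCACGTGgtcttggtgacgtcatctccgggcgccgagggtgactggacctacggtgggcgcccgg

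Of the 8 genes with a promoter, 4 held ACGTG on at least 1 strand, namely Gabarap, Gabarapl2, Bnip3 and Atg5, against 21.8% of 27025 genes. The match began 108 bases before the start in Gabarap and 75 in Gabarapl2. In Atg5 and Bnip3 it was part of CACGTG, 14 and 108 bases before the start, which 8.09% of genes hold. Gabarapl1, with the largest bound, held neither in this window. The letters TGACNNNGC, the core of the NRF2 site, were found in Map1lc3b (13.99% of genes), not in Sqstm1, and GAANNTTC, found in heat shock elements, in none of the 8 (9.04% of genes). A match is a description of letters, and binding was not measured here.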

How the data were processed

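Per the labels, a column kit was used for total RNA, which was biotin-labelled and read on Illumina arrays with 1 colour. The deposited unit is intensity, in whole numbers from -16 upward, and 38.0% (epithelium) and 38.7% (fibers) were at or below 0. The sources used here do not say how background, scaling and rounding were handled. Probes were named by the platform annotation. Quantile normalization of the linear values was done with numpy 2.4.6 and pandas 2.3.3 in Python 3.11.15, which moved the probes of the 10 genes by at most 0.815. Quantile normalization removes any difference in total RNA. The brightest probe was that with the highest mean of both arrays, a reading of the rule that was settled after values under it and under the higher of the arrays had been seen. Bounds entered list medians at their value, and genes whose bound lay under 1 as 0. The ratio step was tested on simulated data, where the changed genes had base levels above every value of the 10 genes. That test does not show how the step performs near the floor.

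No file gave slide or scan information, so no batch was examined. The 10 genes and all lists were chosen with earlier results of these data known. Named genes are the 10, all listed autophagy, lysosome and housekeeping genes at 2-fold or more, 6 further housekeeping genes in list order, up to 6 genes at 2-fold or more of each remaining list, and further genes chosen after their values were seen (Foxe3, Ulk1, Becn1, Wipi2, Atg3, Atg7, Atg12, Fundc1, Fkbp8, Phb2, Tfeb, Vdac1, Vdac2, Hspd1, Cox4i1, Dnase2b, Hbb-y, Hba-a1, Alas2, Hba-x, Tek, Vcp, Nfe2l2 and Keap1). Of the 214 list entries, 15 had no probe named here and were not analysed. The 10 alternative settings covered scaling, floor, choice of probe and fold threshold, and 1 more choice of probe was added after seeing the data.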

Additional observations from a re-analysis of the deposited data

How the results depend on the processing

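The count of 7 genes at 2-fold or more in fibers fell to 2 when scaled to housekeeping genes. It was 1 with the floor at the 99th percentile, 4 with no floor and an offset of 50, and 5 with the mean of all probes. Over genes on both arrays only, which leaves out bounds, it was 3. With the second brightest probe, where 2 genes had a value, it was 0. The median log2 ratio of the measured genes (1.18) was 0.34, 0.20 and 0.64 with housekeeping scaling, the 99th percentile floor and the second brightest probe. Its difference from housekeeping genes (0.15) turned to -0.56 with the 99th percentile floor and to -0.13 with no floor and an offset of 50. That difference was 0.29 over genes on both arrays only, and 0.09 to 0.20 under the other alternatives that gave it. The wider autophagy median (0.27) was -0.24 over genes on both arrays only. Over all genes, the counts in fibers and epithelium (1002 and 1196) were 295 and 2691 with housekeeping scaling, 345 and 467 with the 99th percentile floor, 426 and 519 over genes on both arrays, 660 and 751 with the mean of all probes, 219 and 250 with the second brightest probe, and 1588 and 2006 at 1.5-fold. No gene of the 10 was 2-fold higher in epithelium under any alternative run. Choosing the brightest probe by the higher of the arrays, an alternative added after seeing the data, left the count at 7 and gave 1029 and 1229 over all genes. Of 67 values of single genes, 48 moved by under 0.5 on the log2 scale or not at all, and 19 by more. None that had been at 2-fold turned its direction, but bounds cannot do so by their rule. Gabarapl1 stayed at 2-fold or more under the 8 alternatives that gave it a value, and Bnip3l under 8 of 9. Part of this was fixed in advance. Each has 1 probe, so the mean of all probes and the choice of the brightest could not change their values. A floor of 44.6 on both arrays could not either, nor could keeping only genes on both arrays for Bnip3l. With the mean of all probes, Gabarapl2 fell to 0.0011 and Wipi1 to 0.52. With no floor, Sqstm1 had 0.64, Bnip3 0.20 and Map1lc3a 0.05. The causes were not tested. No paired analysis was possible because each tissue has 1 array. Precision is limited by signal over background: 6 of 16 probes were under the floor on both arrays.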

Other observations

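Genes of the NRF2 stress response, to which the Sqstm1 product is linked through KEAP1, were mostly dim. Of 9 on the array, 4 were measured, and 2 of these were 2-fold or more higher in epithelium: Txnrd1, thioredoxin reductase (106 and 30.1, at least 3.29-fold), and Slc7a11, the cystine transporter (68.9 and 32.1, at least 2.14-fold, with a second probe at at least 1.85-fold). The remaining Slc7a11 probes were under the floor on both arrays. Nfe2l2, which encodes NRF2, and Keap1 had no direction. Over all measured genes, 18.5% were 2-fold or more higher in epithelium.

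Probes of the same gene disagreed widely in these arrays. For 472 genes with at least 2 probes above the floor on both arrays, the log2 ratios of the brightest pair differed by a median of 0.50, and in 10% of these genes by more than 1.84. Gabarap, Gabarapl1, Map1lc3b, Bnip3, Bnip3l and Sqstm1 each had 1 probe, so their ratios could not be compared with a second one.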
